A study of Mus musculus with 16 samples.

Results

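The 32 genes described here belong to families of cell-surface receptors and secreted ligands known from axon guidance. They are the *Unc5* receptors, the netrins and netrin-G proteins, *Dcc* and *Neo1*, the Slit ligands with their Robo receptors, the Flrt proteins, the teneurins (*Tenm*), the latrophilins and a relative (*Adgrl*), and the repulsive guidance molecules *Rgma* and *Rgmb*. They were chosen by symbol from 56748 genes in the deposited count table, and each of the 32 symbols matched 1 gene. Counts came from 16 samples of TM4 cells, an established Sertoli-like line from mouse testis, cultivated with 10% FBS. At 24 h after seeding, the cells received 2.5 µg of a plasmid per well, and RNA was isolated 24 h after transfection. The plasmid was either empty (pcDNA3.1-HA, called EV, 6 samples), carried *gdf6Y* (pcDgdf6Y, 5 samples) or carried the *gdf6Y* mutant variant (pcDgdf6Ydel9, called del9, 5 samples). All groups therefore went through the same transfection, and del9 served next to EV as a control. *gdf6Y* is the male sex-determining gene of the turquoise killifish and encodes a ligand of the BMP branch of the TGF-β family, and the del9 variant lacks a few residues of its prodomain. The samples answer which genes differ between cultures of a Sertoli-like line that received the *gdf6Y* plasmid and those that received a control plasmid.

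Netrins are secreted guidance cues that attract through Dcc and its relative Neo1 and repel through Unc5 receptors, and Slits act through Robo receptors. Flrt proteins are membrane proteins that bind Unc5 receptors and latrophilins, latrophilins also bind teneurins on neighbouring cells, and Neo1 is a receptor for the Rgm proteins, which are also known as BMP co-receptors. Outside the nervous system, the same families act in adhesion, branching and vessel growth.

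Between 21486850 and 25844048 reads per EV sample, 22349497 to 26444903 per *gdf6Y* sample and 24608410 to 26071045 per del9 sample were counted on genes. The killifish transgene itself is not part of the mouse annotation, so the plasmid labels were checked on BMP-responsive genes. The Smad target *Id1* rose from 1035 normalized counts with EV to 1927 with *gdf6Y* (edgeR adjusted p = 2.72e-102), and stood at 1235 with del9, which was above EV as well (edgeR adjusted p = 2.56e-10). The control plasmid del9 thus differed from EV on a BMP-responsive gene. *Id2* was called higher in del9 against EV as well (edgeR adjusted p = 0.0412), with overlapping groups. *Id1* and *Id2* are short, with exonic lengths of 1775 and 3485 bases, and short genes were called higher more often in del9 against EV, as described below. The part of this trend in the 2 calls was not tested. *Id3*, *Smad6*, *Smad7* and *Smad9* were not called there (edgeR adjusted p = 0.681, 0.747, 0.365 and 0.473). In *gdf6Y* against EV, all of these genes were called higher (edgeR adjusted p of 3.01e-10 or below). The study itself had reported them as upregulated by *gdf6Y* in these TM4 cells, so this check of the labels is not independent. *gdf6Y* replicate 1 stood apart from the rest of its group. Its counts differed from the other 4 by a chi-square per degree of freedom of 7.60 to 11.4 over genes, whereas those 4 differed from each other by 2.67 to 4.42. Values without it are given where they matter. Normalized counts were obtained by dividing each count by its sample's TMM-scaled library size and bringing it to the average of these sizes over the 16 samples. Of 11 Sertoli cell markers, 5 had a mean count of at least 10 and 2 (*Wt1* and *Dmrt1*) had no read in any sample. The Sertoli cell transcription factor gene *Gata4* ranged between 822 and 840 normalized counts with EV, 704 and 754 with *gdf6Y* and 757 and 824 with del9, so that every *gdf6Y* sample was below every EV and del9 sample. The other counted markers, *Sox9*, *Dhh*, *Kitl* and *Inha*, overlapped between *gdf6Y* and EV, with *Kitl* at 615 to 727 and 685 to 728. The summed level of the 11 markers was 1682 to 1770 with EV, 1497 to 1619 with *gdf6Y* and 1570 to 1734 with del9, and *Gata4* and *Kitl* made up most of it. The *gdf6Y* and EV samples did not overlap in this sum, del9 overlapped both, and its part in the differences described here was not tested. None of 4 neuronal, 2 germ cell or 3 macrophage markers had a mean count of at least 10. The same held for 7 of 8 endothelial and 4 of 5 Leydig cell markers, and the summed endothelial markers stayed between 38.8 and 71.6 in all samples. In such bulk samples, fewer cells that express a gene and less RNA per cell cannot be told apart.

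The sequences upstream of *Unc5b*, *Tenm4* and *Flrt2* are shown because these were the members that differed between *gdf6Y* and both controls. RefSeq windows of mouse build GRCm38.p6 were used, running from 250 bases before to 50 bases after an annotated start. They were available for 26 of the 32 genes. They were searched for the GC-rich letters GGCGCC and GGAGCC on both strands, so that GGAGCC can also be read as GGCTCC. Such letters are known from elements bound by the BMP-activated Smad proteins, and no matches overlapped in the windows shown. Matches are in capitals and each window is given 5′ to 3′ on the strand of the gene. *Unc5b* has 1 window, chr10:60831532-60831831 on the minus strand, *Tenm4* has 2 on the plus strand, chr7:96170994-96171293 and chr7:96211421-96211720, and *Flrt2* has 1 on the plus strand, chr12:95691976-95692275.
Unc5b: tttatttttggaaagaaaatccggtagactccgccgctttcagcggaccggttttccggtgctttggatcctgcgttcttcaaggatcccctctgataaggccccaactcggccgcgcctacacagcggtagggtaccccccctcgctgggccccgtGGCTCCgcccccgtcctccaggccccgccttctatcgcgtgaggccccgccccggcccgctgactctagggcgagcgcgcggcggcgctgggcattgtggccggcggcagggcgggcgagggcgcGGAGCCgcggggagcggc
Tenm4, first window: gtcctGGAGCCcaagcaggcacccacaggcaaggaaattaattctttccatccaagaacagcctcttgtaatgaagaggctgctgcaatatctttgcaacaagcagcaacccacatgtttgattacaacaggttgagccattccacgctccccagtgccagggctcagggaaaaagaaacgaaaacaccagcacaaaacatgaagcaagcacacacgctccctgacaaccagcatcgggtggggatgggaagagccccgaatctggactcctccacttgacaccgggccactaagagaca
Tenm4, second window: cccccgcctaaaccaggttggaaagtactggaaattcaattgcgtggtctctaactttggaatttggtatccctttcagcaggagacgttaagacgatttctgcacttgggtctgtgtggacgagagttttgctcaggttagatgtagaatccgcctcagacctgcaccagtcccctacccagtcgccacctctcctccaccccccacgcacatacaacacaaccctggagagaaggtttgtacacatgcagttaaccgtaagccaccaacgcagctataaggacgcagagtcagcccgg
Flrt2: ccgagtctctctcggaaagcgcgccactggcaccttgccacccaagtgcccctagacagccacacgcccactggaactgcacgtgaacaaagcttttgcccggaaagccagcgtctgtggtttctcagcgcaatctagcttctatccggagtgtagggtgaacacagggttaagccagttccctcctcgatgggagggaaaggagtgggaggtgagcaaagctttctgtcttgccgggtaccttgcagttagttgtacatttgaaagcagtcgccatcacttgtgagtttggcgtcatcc

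The *Unc5b* window held GGCTCC at -93 to -88 from the start and GGAGCC at 33 to 38. The first *Tenm4* window held GGAGCC at -245 to -240, and the second *Tenm4* window and the *Flrt2* window held neither motif. GGAGCC was present in 30.8% of all 32851 windows of the same length, and GGCGCC in 11.9%. Among the 33 windows of the listed genes, 12 (36.4%) held GGAGCC and 8 (24.2%) held GGCGCC. A match describes the letters and does not show that a factor binds there.

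The listed genes fell into a counted and a nearly silent set in TM4 cells. Counted here means a mean of at least 10 reads per sample, which 11 genes reached, namely *Unc5b*, *Neo1*, *Slit2*, *Slit3*, *Flrt2*, *Tenm3*, *Tenm4*, *Adgrl1*, *Adgrl2*, *Rgma* and *Rgmb*. Of all 32 genes, 29 had at least 1 read in any sample. The netrin receptor *Neo1* and the receptor *Unc5b* were counted in every sample, but their netrin ligands were almost absent. *Ntn4* had 5 to 16 reads per sample and *Ntn5* 4 to 14, and neither *Ntn1* nor *Ntn3* exceeded 4 reads in any sample. The same held for the netrin-G genes *Ntng1* and *Ntng2*, which are listed apart from the netrins and are not meant as ligands of these receptors. In the same way, the ligands *Slit2* and *Slit3* were counted without their receptors. No read fell on *Robo1* or *Robo4* in any of the 16 samples, 2 reads on *Robo2* in del9 replicate 3 and 1 read on *Robo3* in EV replicate 4. A count of 0 allows up to 3 counts per sample, which is 0.113 to 0.14 CPM and covers counting error only. *Unc5a* had no read either. *Unc5d* had at most 8 reads per sample, and *Unc5c*, *Dcc*, *Slit1*, *Flrt1*, *Flrt3*, *Tenm1*, *Tenm2*, *Adgrl3* and the endothelial *Adgrl4* had at most 4. The span of *Ntn3* overlaps that of another gene on its own strand. Reads assigned to several genes were discarded by the counting, and whether *Ntn3* lost reads in this way was not tested. The span of none of the 11 counted genes overlapped that of another protein-coding gene.

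**Figure D1:**
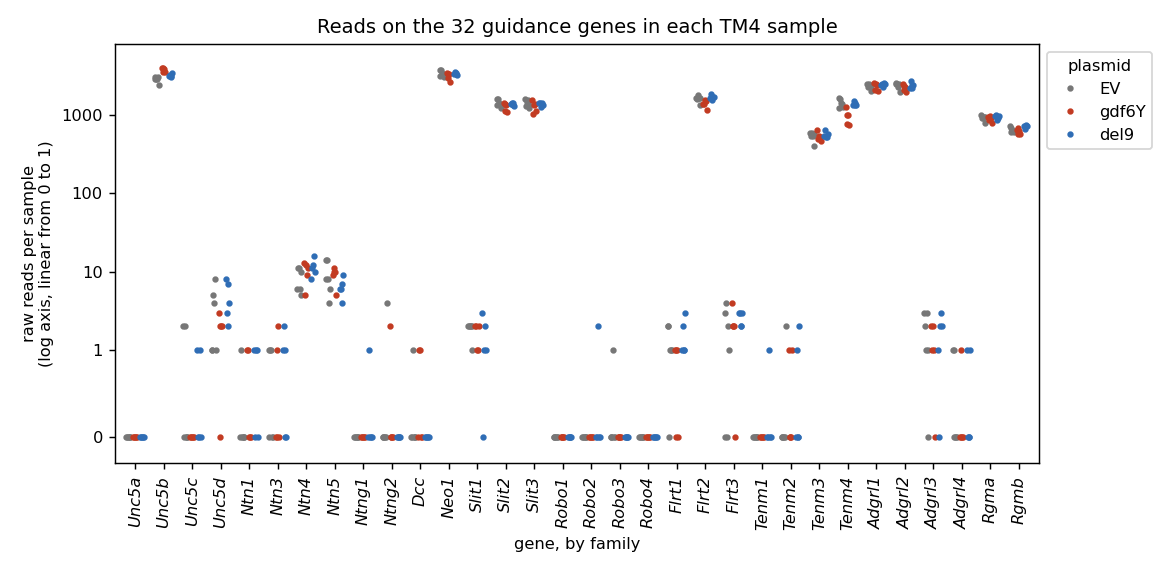
Raw reads per sample (vertical axis, logarithmic above 1 and linear from 0 to 1) for each of the 32 genes, ordered by family, with 1 point per sample for EV (grey, 6), gdf6Y (red, 5) and del9 (blue, 5). The 11 counted genes lie above 400 reads, and all others at 16 reads or below.

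Expressed per length, both counted netrin receptors stood highest. Levels per length are TMM-scaled CPM divided by the kilobases of the gene's canonical transcript. With EV, *Neo1* had 31.3 ± 1.29 (SD, n = 6) and *Unc5b* 19.9 ± 0.877 (SD, n = 6) per kb. The latrophilin *Adgrl1* followed at 11.2 ± 0.292, *Rgma* at 10.3 ± 0.363 and *Adgrl2* at 10.1 ± 0.63 per kb (SD, n = 6 each). *Flrt2* had 8.38 ± 0.403, *Slit3* 6.49 ± 0.328 and *Slit2* 5.88 ± 0.281 per kb (SD, n = 6 each). *Tenm4* had 4.33 ± 0.338, *Rgmb* 2.49 ± 0.0997 and *Tenm3* 2.02 ± 0.166 per kb (SD, n = 6 each). In this order, the EV ranges overlapped for *Rgma* (9.85 to 10.7) and *Adgrl2* (9.34 to 10.9), and for *Slit3* (6.13 to 6.92) and *Slit2* (5.58 to 6.25). Those of the other neighbours did not overlap. The authors' alignment limited the length of introns, and how far this lowers the level of genes with long introns such as *Tenm3*, *Tenm4* and *Slit3* was not tested.

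Groups were compared pairwise with edgeR's quasi-likelihood test over all genes, and a gene was called at a Benjamini-Hochberg adjusted p below 0.05. In *gdf6Y* against EV, 26 of the 32 genes were tested and 7 were called, 1 higher (*Unc5b*) and 6 lower (*Tenm4*, *Flrt2*, *Slit2*, *Slit3*, *Neo1* and *Adgrl2*). Of all 26316 genes tested, 1.7% were called higher and 3.38% lower, and of the 12584 with a mean count of 10 or more, 3.5% and 7.02%. In *gdf6Y* against del9, 28 were tested and 3 were called, *Unc5b* higher and *Tenm4* and *Flrt2* lower. The background was 0.599% higher and 0.41% lower over 25878 genes, and 0.969% and 0.834% over the 12584. In del9 against EV, 29 were tested and 3 were called, all lower (*Slit2*, *Slit3* and *Tenm4*), beside 4.82% higher and 4.43% lower over 26226 genes and 9.97% and 8.25% over the 12584. This balance depended on the scaling, with 1263 genes higher and 1162 lower under TMM but 863 and 1492 with total counts as library size. Every called gene was among the 11 counted genes. Over these 11, the median log2 fold change was -0.10 in *gdf6Y* against EV, -0.04 in *gdf6Y* against del9 and -0.03 in del9 against EV, with medians of all genes of that level within 0.01 of 0. The 3 comparisons share samples, so their values are given side by side and were not set against each other.

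Among the netrin receptors, *Unc5b* was the member that rose. *Unc5b* (chromosome 10, 60598372 to 60667396, minus strand, GRCm39, like all gene positions that follow) is a receptor for netrins and Flrt proteins and is also known from vessel growth. With EV, its normalized counts were 2766 at the lowest, 2890 at the median and 3122 at the highest. With *gdf6Y*, they were 3942, 3805, 3687, 3807 and 3730 in replicates 1 to 5, and with del9 2944, 3090, 3042, 2963 and 3271. All *gdf6Y* samples were thus above all control samples, and EV and del9 overlapped. Against EV, *Unc5b* was 1.31-fold higher (95% interval 1.26 to 1.36; log2 fold change 0.39 ± 0.03 SE, edgeR adjusted p = 2.58e-32), which ranked it 5 by p among all higher genes. Against del9 it was 1.24-fold higher (log2 fold change 0.31 ± 0.03 SE, edgeR adjusted p = 2.77e-18, rank 10). Between del9 and EV, the log2 fold change was 0.08 ± 0.03 SE (edgeR adjusted p = 0.0626). This last value passed the threshold when EV replicate 5, del9 replicate 1 or del9 replicate 4 was left out (edgeR adjusted p = 0.0181, 0.0302 and 0.0421).

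*Neo1* (chromosome 9, 58781965 to 58944238, minus strand), the netrin and Rgm receptor with the highest level of the listed genes, was slightly lower with *gdf6Y*. Normalized counts ranged from 3198 to 3597 with EV (median 3427), and were 3403, 3204, 3118, 3251 and 2809 with *gdf6Y* and 3185, 3342, 3316, 3258 and 3141 with del9. The groups overlapped, and *gdf6Y* replicate 5 was the lowest of all samples. The level fell by 7.86% against EV (log2 fold change -0.12 ± 0.03 SE, edgeR adjusted p = 0.00325), and without *gdf6Y* replicate 5 the call was lost (log2 fold change -0.08, edgeR adjusted p = 0.172). It was also lost with filterByExpr, edgeR's filter on low counts (edgeR adjusted p = 0.0615), and with at least 10 counts required in every sample (edgeR adjusted p = 0.0629). Against del9 the log2 fold change was -0.04 (95% interval -0.10 to 0.03, edgeR adjusted p = 0.657). For del9 against EV it was -0.08 ± 0.03 SE (edgeR adjusted p = 0.0733), which passed without EV replicate 2 or del9 replicate 2 (edgeR adjusted p = 0.0138 and 0.0371), with DESeq2 (adjusted p = 0.0494) and with DESeq2's size factors or total counts as scaling (edgeR adjusted p = 0.0466 and 0.0156).

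The Neo1 ligands *Rgma* (chromosome 7, 73025224 to 73069647, plus strand) and *Rgmb* (chromosome 17, 16022655 to 16051513, minus strand) were not called in any of the 3 comparisons. *Rgma* ranged from 839 to 964 normalized counts over all samples, with log2 fold changes between -0.03 and 0.004. *Rgmb* ranged from 626 to 693 with EV, 604 to 634 with *gdf6Y* and 633 to 744 with del9. Only the lowest EV and the lowest del9 sample lay within the *gdf6Y* range. Its log2 fold change in *gdf6Y* against del9 was -0.14 (95% interval -0.23 to -0.05, edgeR adjusted p = 0.154).

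Both counted Slit ligands, secreted proteins that repel through Robo receptors, were lower with either *gdf6Y* plasmid than with EV. *Slit2* (chromosome 5, 48140480 to 48465075, plus strand) had 1370, 1415 and 1534 normalized counts at the lowest, the median and the highest EV sample. It had 1384, 1209, 1301, 1324 and 1168 with *gdf6Y* and 1319, 1366, 1352, 1327 and 1259 with del9. All del9 samples lay below all EV samples, whereas 1 *gdf6Y* sample, replicate 1, lay within the EV range. *Slit2* fell by 11.3% in *gdf6Y* against EV (log2 fold change -0.17 ± 0.04 SE, edgeR adjusted p = 7.85e-05) and by 8.10% in del9 against EV (-0.12 ± 0.03 SE, edgeR adjusted p = 0.00699). Between *gdf6Y* and del9 the log2 fold change was -0.05 (95% interval -0.12 to 0.03, edgeR adjusted p = 0.654). The del9 call was lost without EV replicate 3 or del9 replicate 5 (edgeR adjusted p = 0.0531 and 0.054).

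*Slit3* (chromosome 11, 35011789 to 35602786, plus strand) had 1352 to 1525 normalized counts with EV (median 1411). It had 1529, 1135, 1258, 1359 and 1201 with *gdf6Y* and 1353, 1355, 1287, 1329 and 1275 with del9. Replicate 1 of *gdf6Y* was above every EV sample and the other 4, at 1135 to 1359, lay near or below the lowest EV sample. *Slit3* fell by 9.24% in *gdf6Y* against EV (log2 fold change -0.14 ± 0.04 SE, edgeR adjusted p = 0.00379) and by 7.63% in del9 against EV (-0.11 ± 0.03 SE, edgeR adjusted p = 0.0132). The first call was lost with DESeq2 (adjusted p = 0.0977), with either stricter filter on low counts (edgeR adjusted p = 0.125 and 0.127) and with the edgeR 4 dispersion (edgeR adjusted p = 0.055). It was also lost without *gdf6Y* replicate 2 or 5 (edgeR adjusted p = 0.13 and 0.0572), and without *gdf6Y* replicate 1 the log2 fold change was -0.20. The del9 call was lost without EV replicate 1 or 4 or del9 replicate 3 or 5 (edgeR adjusted p = 0.0649, 0.0972, 0.0583 and 0.0609). For *gdf6Y* against del9 the log2 fold change was -0.02 (95% interval -0.10 to 0.06, edgeR adjusted p = 0.881).

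*Flrt2* (chromosome 12, 95658740 to 95752360, plus strand), the only counted Flrt gene, encodes a membrane protein that binds Unc5 receptors and latrophilins. Its normalized counts were 1531, 1641 and 1748 at the lowest, the median and the highest EV sample. They were 1369, 1514, 1437, 1477 and 1234 with *gdf6Y* and 1562, 1743, 1565, 1602 and 1631 with del9. Every *gdf6Y* sample was below every control sample and EV and del9 overlapped. *Flrt2* fell by 13.7% against EV (log2 fold change -0.21 ± 0.03 SE, edgeR adjusted p = 1.69e-07) and by 12.9% against del9 (-0.20 ± 0.04 SE, edgeR adjusted p = 4.09e-05). Among all lower genes it ranked 149 and 26 by p. The call against del9 was lost with either stricter filter on low counts (edgeR adjusted p = 0.0912 and 0.0887). In del9 against EV the log2 fold change was -0.01 (95% interval -0.07 to 0.06, edgeR adjusted p = 0.954).

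*Tenm4* (chromosome 7, 95820453 to 96560300, plus strand), a large membrane protein of the teneurin family that binds latrophilins, showed the largest difference of the 11 counted genes. Its normalized counts were 1270, 1421 and 1573 at the lowest, the median and the highest EV sample. They were 1238, 826, 920, 998 and 800 with *gdf6Y* and 1284, 1457, 1335, 1337 and 1277 with del9. Every *gdf6Y* sample was below every control sample, but replicate 1 came close to the lowest of them. *Tenm4* fell by 33.4% in *gdf6Y* against EV (log2 fold change -0.59 ± 0.04 SE, edgeR adjusted p = 5.99e-42), the smallest p of all lower genes. It fell by 28.1% against del9 (-0.48 ± 0.04 SE, edgeR adjusted p = 1.47e-28, rank 3). Without *gdf6Y* replicate 1, these log2 fold changes were -0.69 and -0.59. *Tenm4* also fell by 6.95% in del9 against EV, with overlapping groups (log2 fold change -0.10 ± 0.03 SE, edgeR adjusted p = 0.03). That call was lost with DESeq2 (adjusted p = 0.121), with either stricter filter (edgeR adjusted p = 0.11 in both) and with the edgeR 4 dispersion (edgeR adjusted p = 0.0703). It was also lost when any one of 6 samples was left out, namely EV replicate 1 or 3 or del9 replicate 1, 3, 4 or 5 (edgeR adjusted p = 0.203, 0.209, 0.0778, 0.0676, 0.0505 and 0.139).

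Its paralog *Tenm3* (chromosome 8, 48678708 to 49296986, minus strand) was not called in any comparison. It ranged from 460 to 581 normalized counts with EV, 498 to 635 with *gdf6Y* and 501 to 614 with del9. Its log2 fold changes were -0.03 (95% interval -0.12 to 0.07) in *gdf6Y* against EV, -0.01 (-0.11 to 0.09) against del9 and -0.01 (-0.10 to 0.08) in del9 against EV.

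Of the latrophilins, adhesion G protein-coupled receptors for teneurins and Flrt proteins, *Adgrl1* (chromosome 8, 84626588 to 84668583, plus strand) was not called. It ranged from 2133 to 2526 normalized counts over all samples, and its log2 fold change in *gdf6Y* against EV was -0.01 (95% interval -0.08 to 0.05). *Adgrl2* (chromosome 3, 148518957 to 148696229, minus strand) ranged from 2213 to 2572 with EV (median 2405). It had 2405, 2292, 2159, 2239 and 2072 with *gdf6Y* and 2117, 2607, 2201, 2247 and 2318 with del9, so all groups overlapped. *Adgrl2* fell by 6.80% in *gdf6Y* against EV (log2 fold change -0.10 ± 0.03 SE, edgeR adjusted p = 0.0309). The call was lost with DESeq2 (adjusted p = 0.111), with either stricter filter (edgeR adjusted p = 0.127 and 0.13) and with the edgeR 4 dispersion (edgeR adjusted p = 0.0926). It was also lost without EV replicate 1, 2, 3 or 5 (edgeR adjusted p = 0.0738, 0.152, 0.0622 and 0.132) or *gdf6Y* replicate 3, 4 or 5 (edgeR adjusted p = 0.141, 0.0535 and 0.254). Against del9 the log2 fold change was -0.04 (95% interval -0.10 to 0.03, edgeR adjusted p = 0.684). For del9 against EV it was -0.06 (edgeR adjusted p = 0.268), and it passed without del9 replicate 2 (edgeR adjusted p = 0.00946).

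The nearly silent members gave no call. The 3 with the most reads had wide errors, as in *gdf6Y* against EV, where log2 fold changes were 0.28 ± 0.32 (SE) for *Ntn4*, -0.003 ± 0.32 (SE) for *Ntn5* and -0.85 ± 0.57 (SE) for *Unc5d*. No difference of these genes passed the test. At these counts small differences could not be measured, and larger ones could go uncalled. For *Unc5d* in *gdf6Y* against EV, the 95% interval of the fold change ran from 0.254 to 1.21.

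Balances between members within a sample do not depend on the library scaling, so 4 ratios of levels per length were formed. Division by a fixed length does not remove a trend on length that differs between samples. The part of such a trend in the ratios was not tested. The pairs were chosen after the values of the genes had been seen, so the ratios are a description with no test. *Tenm4* to *Tenm3* was 2.16 ± 0.239 in the EV samples (SD, n = 6), 1.44 ± 0.151 in the *gdf6Y* samples (SD, n = 5) and 2.02 ± 0.119 in the del9 samples (SD, n = 5). The highest *gdf6Y* sample had 1.59, and the lowest control samples had 1.88 (EV) and 1.87 (del9). *Unc5b* to *Neo1*, both netrin receptors, was 0.638 ± 0.0432 in the EV samples (SD, n = 6), 0.907 ± 0.0522 in the *gdf6Y* samples (SD, n = 5) and 0.710 ± 0.0415 in the del9 samples (SD, n = 5). The *gdf6Y* samples lay above all controls, and EV and del9 overlapped. *Unc5b* to *Flrt2*, a receptor and its binding partner, was 2.39 ± 0.135 (SD, n = 6), 3.63 ± 0.302 (SD, n = 5) and 2.53 ± 0.119 (SD, n = 5) in the same order, again with the *gdf6Y* samples above all controls. *Slit2* to *Slit3* was 0.906 ± 0.0401 (SD, n = 6), 0.889 ± 0.0556 (SD, n = 5) and 0.901 ± 0.026 (SD, n = 5), with overlapping samples in all groups.

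The counted members are long genes, and long genes as a whole were called more often in one direction. Their median exonic length was 12587 bases, against 6152 bases over the 12549 genes of known length with 10 or more counts on average, and their median genomic span was 162274 against 23868 bases. Of the 11, 7 fell into the longest quintile of exonic length (10079 to 123193 bases). In that quintile, 19.8% of genes were called lower and 0.598% higher in *gdf6Y* against EV, whereas in the shortest quintile 1.16% were lower and 7.17% higher. With del9 against EV, 17.8% of the longest quintile were lower and 3.47% higher, and 3.23% and 14.7% of the shortest. In *gdf6Y* against del9 the shares were small, with 1.59% of the longest and 0.279% of the shortest quintile lower. The median log2 fold change of the longest quintile was -0.04 in *gdf6Y* against EV, -0.01 in *gdf6Y* against del9 and -0.03 in del9 against EV. Over the 11 counted genes it was -0.10, -0.04 and -0.03 in the same order. Within each group, single libraries differed in size and sign of a trend on length. For each library, the log ratio to the mean of the other samples of its own group was rank-correlated with exonic length across 12549 genes. The correlation was lowest in *gdf6Y* replicate 5 (-0.236) and highest in del9 replicate 2 (0.166), and it was positive in 3 of the 5 *gdf6Y* libraries. These values describe the spread within groups and not the trend between them. Genes are not independent replicates.

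**Figure D2:**
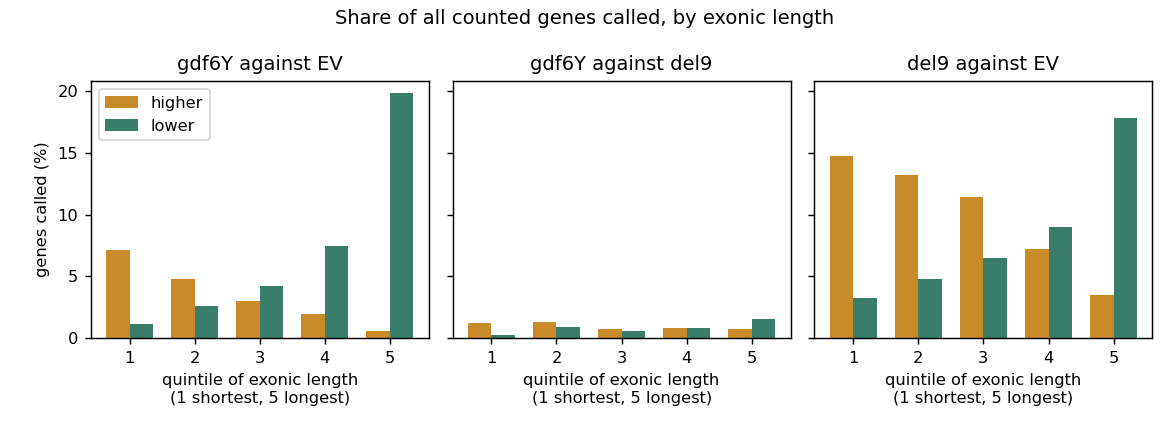
Share of genes called higher (orange) or lower (green), in percent, in each quintile of exonic length among the 12549 genes, for the 3 comparisons. In both comparisons with EV the longest quintile holds the most lower calls, 19.8% and 17.8%, whereas no quintile exceeds 1.59% in gdf6Y against del9.

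The tests were repeated with a per-sample offset that removes a smooth trend of the counts on exonic length. *Unc5b*, *Flrt2* and *Tenm4* kept their calls in both comparisons of *gdf6Y*. Against EV, the log2 fold change with the offset was 0.39 for *Unc5b* (edgeR adjusted p = 6.56e-40), -0.19 for *Flrt2* (edgeR adjusted p = 1.75e-06) and -0.49 for *Tenm4* (edgeR adjusted p = 4.38e-39). Against del9 it was 0.31, -0.20 and -0.46. The calls of *Slit2*, *Slit3*, *Neo1* and *Adgrl2* in *gdf6Y* against EV were lost, with log2 fold changes of -0.03, -0.09, -0.08 and -0.01 (edgeR adjusted p = 0.695, 0.133, 0.0984 and 0.917). For del9 against EV, *Slit2*, *Slit3* and *Tenm4* were lost as well (log2 fold changes -0.01, -0.07 and -0.03, edgeR adjusted p = 0.877, 0.239 and 0.713). *Unc5b* was called there with the offset (0.08, edgeR adjusted p = 0.0482). An offset on genomic span instead lost and kept the same genes.

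**Figure D3:**
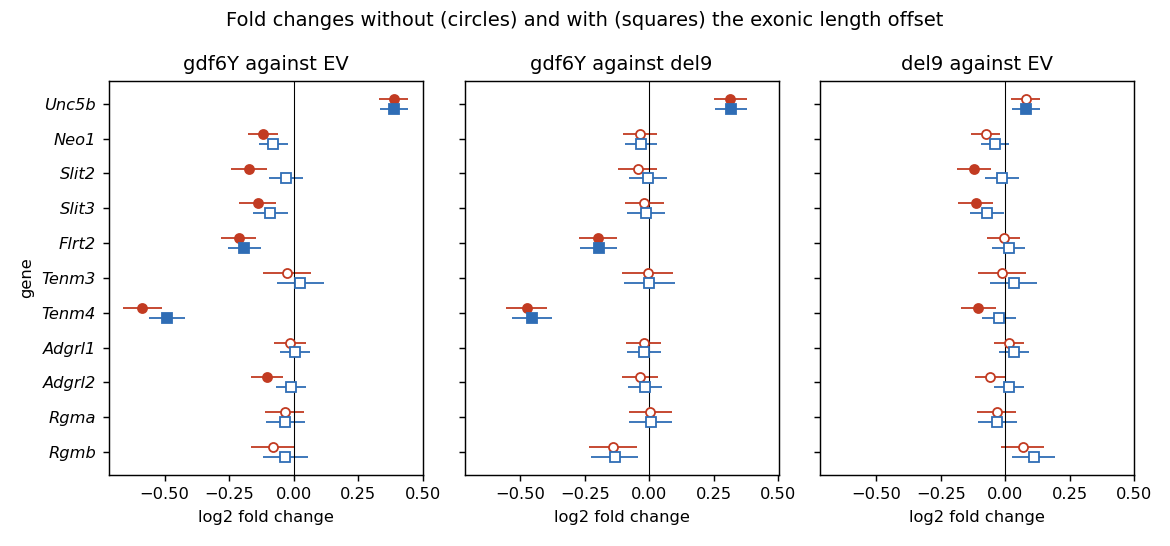
Log2 fold changes of the 11 counted genes in the 3 comparisons, without (red circles) and with (blue squares) the offset for exonic length. Bars are 95% intervals and filled symbols mark genes with an edgeR adjusted p below 0.05. Unc5b, Flrt2 and Tenm4 are filled with and without the offset in both comparisons of gdf6Y.

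Co-receptors and intracellular partners of these receptors were also listed by symbol. Of 47 such genes, 43 were tested in *gdf6Y* against EV, and 4 were called lower, among them *Srgap3*, *Abl2* and *Fgfr1*, and 0 higher, beside the 3.38% lower and 1.7% higher of all genes tested. Most partner genes had a mean count of 10 or more, and of all genes at that level 7.02% were lower and 3.5% higher. The Slit-Robo GTPase-activating gene *Srgap3* (log2 fold change -0.21 ± 0.03 SE) and the kinase gene *Abl2* (-0.18 ± 0.03 SE) both had an edgeR adjusted p of 3.14e-07, and the groups overlapped for *Srgap3* and not for *Abl2*. *Fgfr1*, a receptor gene outside the rule for named genes, had -0.11 ± 0.03 SE (edgeR adjusted p = 0.00789). Its call was lost with the exonic length or span offset (edgeR adjusted p = 0.29 and 0.13) and without *gdf6Y* replicate 4 or 5 (edgeR adjusted p = 0.0616 and 0.0562). In *gdf6Y* against del9, 2 of 45 were called, beside 0.599% higher and 0.41% lower of all genes. At a mean count of 10 or more, these shares were 0.969% and 0.834%. The glypican gene *Gpc1* was lower (log2 fold change -0.17 ± 0.03 SE, edgeR adjusted p = 4.19e-05), and the unconventional myosin gene *Myo10* was higher (0.13 ± 0.03 SE, edgeR adjusted p = 0.00344). *Myo10* lost its call with DESeq2 (adjusted p = 0.274), with either stricter filter (edgeR adjusted p = 0.288 and 0.279) and without *gdf6Y* replicate 1 or del9 replicate 5 (edgeR adjusted p = 0.211 and 0.0578). Between del9 and EV, 5 of 44 were higher and 2 lower, beside 4.82% and 4.43% of all genes. At a mean count of 10 or more, these shares were 9.97% and 8.25%. The called genes were led by *Gpc1* (0.13 ± 0.03 SE, edgeR adjusted p = 7.42e-05), the actin regulator gene *Vasp* (0.12 ± 0.03 SE, edgeR adjusted p = 0.000587) and *Pitpna*, which encodes a phosphatidylinositol transfer protein (0.10 ± 0.03 SE, edgeR adjusted p = 0.00223). The 2 lower genes were *Srgap3* (-0.12 ± 0.03 SE, edgeR adjusted p = 0.00754) and *Myo10* (-0.09 ± 0.03 SE, edgeR adjusted p = 0.0115). Both of these calls were lost with the exonic length or span offset. *Myo10* was not called in *gdf6Y* against EV (log2 fold change 0.04, edgeR adjusted p = 0.57). No partner gene was called in both comparisons of *gdf6Y*. The median log2 fold change of the partner genes was -0.01, -0.02 and 0.004 in the 3 comparisons, beside medians of -0.002, 0.01 and -0.01 over all genes tested.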

How the data were processed

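Sertoli-like TM4 cells carrying EV, *gdf6Y* or del9 plasmids were sequenced from poly(A) RNA with directional libraries made from 300 ng total RNA. The authors deposited whole-number counts per gene without normalization. Per the labels and the study's methods, bcl2fastq 2.20.0.422, UMI-tools and STAR 2.7.10a (GRCm39, Ensembl annotation) were used, PCR duplicates were removed by molecular identifier, and featureCounts 2.0.3 counted uniquely mapped reads by strand, discarding reads on several genes. A sixth *gdf6Y* and a sixth del9 sample, which the study left out for quality, were not analysed here.

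Groups came from the sample labels, and 0 columns of the table were unused. Nothing states that replicates are separate cultures, so p-values measure the spread between these samples. No 2 replicates were alike within sampling noise (chi-square per degree of freedom 1.41 to 11.4 over 35 pairs). Counts were fitted with edgeR 4.0.16 in R 4.3.3 (TMM, quasi-likelihood test, 2 groups per model, no covariate, genes with 1 or more reads in a sample of the 2 groups), with Benjamini-Hochberg adjustment over all genes. Symbols, positions and lengths were taken from GENCODE on GRCm39, which matched 56017 of 56748 identifiers and is a release other than the one used for counting. The members and lists were chosen with earlier results of these data known. Values are given for each member called in at least 1 comparison, and other members are summarised. For partner genes, up to 3 called per comparison with the smallest adjusted p are given, plus the 2 lower in del9 against EV. The values of 1 partner gene under this rule are not reported here. The length offset was a lowess curve (span 0.3) of each sample's log2 ratio to the mean sample on log10 length. The steps were tested on simulated counts. Alternatives were DESeq2 1.42.0, other size factors and filters, the edgeR 4 dispersion, a joint model of the 3 groups, a block on replicate number, length or span offsets, and each replicate left out. The depth of 21486850 to 26444903 counted reads per sample limits the precision of genes with few counts.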

Additional observations from a re-analysis of the deposited data

Results flagged for a closer look

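Over the 11 counted genes and the total count in 3 groups, 36 sets of samples were screened for a sample far from the others with Dixon's test, which by chance marks about 1.8 of them, and 3 were marked. *Tenm3* in EV replicate 6 had 459.5 normalized counts, whereas the other EV samples had 541 to 581. *Tenm3* in *gdf6Y* replicate 1 had 634.7 normalized counts, whereas the other *gdf6Y* samples had 498 to 530. The same library had the highest level of its group for each counted gene but *Flrt2* and *Rgmb*. The total count of del9 replicate 3 was 24608410, below the other del9 samples at 25650188 to 26071045.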

How the results depend on the processing

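*Unc5b* and *Tenm4* in both comparisons of *gdf6Y*, and *Flrt2* in *gdf6Y* against EV, kept direction and call under each of the 22 or 23 alternatives, and no called result reversed. Some genes that were not called changed sign, as *Tenm3* in *gdf6Y* against EV (log2 fold changes from -0.09 to 0.07). Members called in *gdf6Y* against EV (7) numbered 4 with filterByExpr, 4 with at least 10 counts in every sample, 3 with either the exonic length or the span offset, 4 with block and span offset, and 4 to 7 with 1 sample left out. In del9 against EV (3) they numbered 1 with either offset, with or without the block, and 0 to 5 with 1 sample left out (0 without del9 replicate 5, 1 without EV replicate 1, EV replicate 3 or del9 replicate 3, 5 without del9 replicate 2). In *gdf6Y* against del9 (3) no count moved by over 1.5 times. Partner genes called numbered 2 with the exonic offset, 9 with block and span offset and 2 to 7 with 1 sample left out in *gdf6Y* against EV (4). They numbered 1 with DESeq2, filterByExpr or at least 10 counts in every sample, 5 with all groups in one model, and 1 to 4 with 1 sample left out in *gdf6Y* against del9 (2). In del9 against EV (7) they numbered 12 with block and span offset and 4 to 8 with 1 sample left out. Apart from the settings that leave out genes or samples, the cause was not tested.

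The labels give the groups shared replicate numbers. Correlations of same-numbered samples were -0.0147 to 0.18, 0.091 to 0.152 and -0.0377 to 0.152 in the 3 comparisons. Their means were 0.111, 0.129 and 0.0503, and those of differently numbered samples -0.0223, -0.0323 and -0.0101. Every same-numbered pair was positive in *gdf6Y* against del9, but not in the comparisons with EV. Of 5 samples, 3, 3 and 1 were closest to their own number. The numbers were not taken as pairing in the main tests, and the fits with a block show what this choice changes. With the replicate block, members called stayed at 7 in *gdf6Y* against EV and were 4 in *gdf6Y* against del9 (*Rgmb* added, adjusted p = 0.0291) and 5 in del9 against EV (*Neo1* and *Adgrl2* added). Partner genes called were 7, 5 and 9 with the block, and in *gdf6Y* against del9 4 with block and exonic offset and 5 with block and span offset. Over all genes, calls in *gdf6Y* against del9 (155 higher, 106 lower) were 48 and 33 with DESeq2, 26 and 19 with filterByExpr, 25 and 19 with at least 10 counts in every sample, 104 and 59 with the edgeR 4 dispersion and 289 and 372 with the block. In *gdf6Y* against EV (448 and 890) they were 521 and 591 with the exonic offset and 821 and 1240 with the block. Block and span offset gave 863 and 862 there. In del9 against EV (1263 and 1162) they were 1323 and 916 with the exonic offset and 1592 and 1404 with the block. Block and span offset gave 1638 and 1148. For *gdf6Y* against del9, block and exonic offset gave 312 and 353, and block and span offset 307 and 361. Calls over all genes thus also rose with the block.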
